A study of Mus musculus with 4 samples.

Results

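The genes described here are 7 genes linked to lymphoid priming, Satb1, Sox4, Myl10, Cd34, Ikzf1, Mef2c and Notch1, out of the 31053 genes listed for each library. They were picked by symbol, and the values that led to the choice were lower Satb1 and Myl10 UMIs in TLR9-/- than in wild-type (WT) bone marrow progenitors, so the genotype values within progenitors are given as a description with no test. Bone marrow mononuclear cells of 2 TLR9-/- and 2 WT mice, all C57BL/6 with no treatment named, were sequenced as 5′ single-cell RNA libraries, 1 from each mouse. Progenitors and mature cells of the TLR9-/- mice carry the disrupted gene alike, and age was not given with the libraries. A WT and a TLR9-/- mouse were handled together in each experiment, and which libraries belong together is not stated in the labels. A gene's level is given as its unique molecular identifiers (UMIs, a tag for each captured molecule) over all UMIs of the class and library, scaled to 1000000 (CPM), and values are listed for TLR9-/- libraries 1 and 2 and then for WT libraries 1 and 2.

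Blood cell formation starts from stem cells and multipotent progenitors that gradually lose lineage options, and lymphoid priming is the early, low-level activity of lymphoid genes in cells that can still make myeloid cells. Progenitors that gain the receptor Flt3 and then the recombination genes Rag1, Rag2 and the DNA polymerase gene Dntt become biased to B, T and NK cell fates, while others take the granulocyte-monocyte or the megakaryocyte-erythroid path. Satb1 is a chromatin organiser needed for full lymphoid output of early progenitors. Ikzf1 (Ikaros) is a zinc finger factor that opens lymphoid genes, Mef2c is a MADS box factor that favours lymphoid over myeloid fate, and Sox4 is an HMG box factor required for B cell precursors. Notch1 is the receptor that directs progenitors to the T cell fate, Cd34 is a sialomucin of the progenitor surface, and Myl10 encodes a myosin regulatory light chain known from precursor lymphocytes.

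Cells were assigned by marker gates that used none of the 7 genes. The progenitor pool was made of cells with a UMI of Kit or Flt3 that passed no gate of a mature class. Each panel of mature markers (Csf1r aside) was allowed 1 UMI, or 0.2% of the UMIs of the cell. Pool cells could thus hold some mature transcripts, and 393, 357, 185 and 234 of them had no UMI of the B panel. In all, the pool held 630, 661, 247 and 373 cells, 1911 of the 39167 cells that passed quality filters. These were 5.84% and 7.41% of the TLR9-/- cells and 2.34% and 4.19% of the WT cells. A gate on a UMI of Kit or Flt3 depends on depth. The libraries had the same order in these shares as in median UMIs per cell (2545, 3618, 1759 and 2287). With gates on cells thinned at random to equal depth, the pool held 195, 150, 88 and 124 cells. The part of depth in the shares was not tested, so they are not read as a genotype difference in progenitor frequency. Stem-like progenitors (Hlf, Mecom, Procr, Ifitm1 and related markers) were 142, 116, 45 and 71 cells. Ifitm1 had 1352, 1686, 302 and 633 UMIs in them and Hlf had 95, 106, 28 and 54. The type is thus stem-like in the sense of its summed panel, to which Ifitm1 gave far more UMIs than Hlf. In CPM both were lower in TLR9-/- libraries without overlap. Hlf stood at 90.7 and 86.5 against 133 and 128 CPM, and Ifitm1 at 1291 and 1376 against 1437 and 1502 CPM. Whether the makeup of the type differed between the genotypes was not tested. Lymphoid-primed progenitors (Dntt, Il7r, Rag1, Rag2, Ly6d, Lax1) were only 55, 55, 31 and 27 cells, so that each of their values rests on few cells. The granulocyte-monocyte, monocyte-dendritic and megakaryocyte-erythroid types made up the rest, with 37, 20, 12 and 17 cells of no type. In the lymphoid-primed cells the 3 plasmacytoid dendritic markers stood at 247 to 319 CPM, against 5363 to 6315 CPM in gated plasmacytoid dendritic cells, and the 6 B markers stood at 145 to 221 CPM, so the type is lymphoid-primed in the sense of its gate and is not free of cells with such transcripts. Single libraries also stood apart, WT library 1 with the erythroblast panel at 202 CPM (5.24 to 25.8 CPM in the others) and the T panel at 41.4 CPM (0 to 9.09 CPM), and WT library 2 with the neutrophil panel at 99.5 CPM (19.8 to 40.9 CPM).

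Libraries held 31210188 to 63958243 UMIs, and the median per cell was 2545 and 3618 in TLR9-/- and 1759 and 2287 in WT mice. Pairs of libraries shared 112 to 185 cell barcodes. Tlr9, the disrupted gene, had 41 and 48 UMIs in TLR9-/- cells and 120 and 97 in WT cells, a log2 fold change of -1.98 (standard error, SE, of 0.35, edgeR adjusted p = 0.117). Residual Tlr9 UMIs in TLR9-/- cells were few but present, and which part of the gene the allele removes is not given in the sources used here. Tests compare the spread between single mice, and counting intervals given below cover counting error only.

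The 7 genes are scattered over 6 chromosomes of GRCm38. Cd34 lies at chr1:194938819-194961279 on the plus strand, Notch1 at chr2:26457903-26516663 on the minus strand, Myl10 at chr5:136693146-136701094 on the plus strand and Ikzf1 at chr11:11685003-11772926 on the plus strand. Sox4 at chr13:28948919-28953713 on the minus strand and Mef2c at chr13:83504034-83667080 on the plus strand share a chromosome but not a neighbourhood. Satb1 lies at chr17:51736187-51833290 on the minus strand. Because Satb1 and Myl10 are the genes on which the choice rested, the 250 bases before their start sites are shown, 5′ to 3′ on the strand of the gene, from RefSeq (GRCm38.p6). The Satb1 stretch is chr17:51833291-51833540 on the minus strand and the Myl10 stretch is chr5:136692896-136693145 on the plus strand.
Satb1: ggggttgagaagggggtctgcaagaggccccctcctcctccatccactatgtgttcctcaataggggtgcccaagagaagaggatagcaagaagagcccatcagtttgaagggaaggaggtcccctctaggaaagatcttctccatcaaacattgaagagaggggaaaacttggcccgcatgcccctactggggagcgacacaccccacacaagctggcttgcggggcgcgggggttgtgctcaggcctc
Myl10: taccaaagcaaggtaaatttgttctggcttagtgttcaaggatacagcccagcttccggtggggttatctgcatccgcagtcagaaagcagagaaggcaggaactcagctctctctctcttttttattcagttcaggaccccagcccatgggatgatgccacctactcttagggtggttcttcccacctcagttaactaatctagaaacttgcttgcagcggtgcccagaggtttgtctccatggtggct
The E-box letters CANNTG, bound by E proteins, were searched on both strands and had 0 matches in either stretch, whereas 66.2% of 32851 stretches of the same length held at least 1. The Runx letters TGTGGT, searched on both strands as well, had 0 matches in either, against 14.0% of all stretches. Nothing is capitalised since no match was found, and these letters say nothing of what lies outside the windows.

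Where the 7 genes stood among the cell types was examined next. Lymphoid-primed progenitors were compared with granulocyte-monocyte progenitors of the same mice, with the library as a block, by edgeR's quasi-likelihood test with Benjamini-Hochberg adjustment over all genes tested. All 7 genes were higher in lymphoid-primed cells. This is to be read against a background in which 33.2% of 7464 genes passed the same test in either direction.

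Myl10 separated these types most among the 7. It stood at 435, 312, 486 and 351 CPM in lymphoid-primed cells and at 4.12, 4.70, 8.48 and 5.28 CPM in granulocyte-monocyte cells. All 4 lymphoid-primed values lay far above all 4 granulocyte-monocyte values, with a log2 fold change of 6.07 (SE 0.16, adjusted p = 3.05e-17). Satb1 stood at 101, 93.9, 145 and 178 CPM in lymphoid-primed cells and at 9.42, 8.43, 10.9 and 14.8 CPM in granulocyte-monocyte cells. These ranges did not overlap either, and the log2 fold change was 3.38 (SE 0.18, adjusted p = 5.65e-12). Notch1 (3.04), Mef2c (3.02), Sox4 (2.59), Ikzf1 (1.76) and Cd34 (1.33) followed on the log2 scale, the last with an adjusted p of 9.83e-06. The 7 calls were also made with DESeq2, without a filter on low counts and with each library left out.

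Against stem-like progenitors the 7 genes did not move as a block. Of all 5767 genes tested, 9.29% passed, and of the 7 genes Satb1, Myl10, Ikzf1, Mef2c and Notch1 were higher in lymphoid-primed cells while Cd34 was lower. Notch1 had the largest difference, with 133, 130.3, 87.9 and 189 CPM in lymphoid-primed against 33.4, 32.6, 47.6 and 61.7 CPM in stem-like cells. The lowest lymphoid-primed value was above the highest stem-like value, and the log2 fold change was 1.78 (SE 0.19, adjusted p = 9.22e-06). Myl10 followed with 1.50 (SE 0.23, adjusted p = 0.000381), and its 4 stem-like values, 84.0 and 75.1 against 290.2 and 234.9 CPM, were themselves far apart between the genotypes. Cd34, used in the field to mark early progenitors, was at 151, 142, 103 and 225 CPM in lymphoid-primed and at 219.6, 289, 281 and 280.0 CPM in stem-like cells. Its ranges overlapped, and the log2 fold change was -0.79 (SE 0.15, adjusted p = 0.00187). Sox4, with a log2 fold change of 0.12 (SE 0.12, adjusted p = 0.657), did not pass the test.

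Early B precursors (Cd79a, Vpreb1, Igll1 and Dntt) are the next lymphoid stage in the data. Here 27.9% of 9275 genes passed the test in either direction, and 6 of the 7 genes were higher in the lymphoid-primed progenitors. Cd34 fell most toward the B lineage, from the values above to 7.54, 4.14, 2.76 and 4.28 CPM in early B precursors. The 4 precursor values did not reach the lowest progenitor value, and the log2 fold change, lymphoid-primed over precursors, was 4.95 (SE 0.24, adjusted p = 6.24e-10). Notch1 was also higher in the progenitors (2.50), as were Satb1 (2.09), Myl10 (1.56), Mef2c (0.83) and Sox4 (0.57, adjusted p = 0.00401). Ikzf1 had a log2 fold change of 0.07 (SE 0.14, adjusted p = 0.769), with 114, 116, 143 and 144 CPM in the precursors against 158, 117, 124 and 147 CPM in the progenitors.

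**Figure D1:**
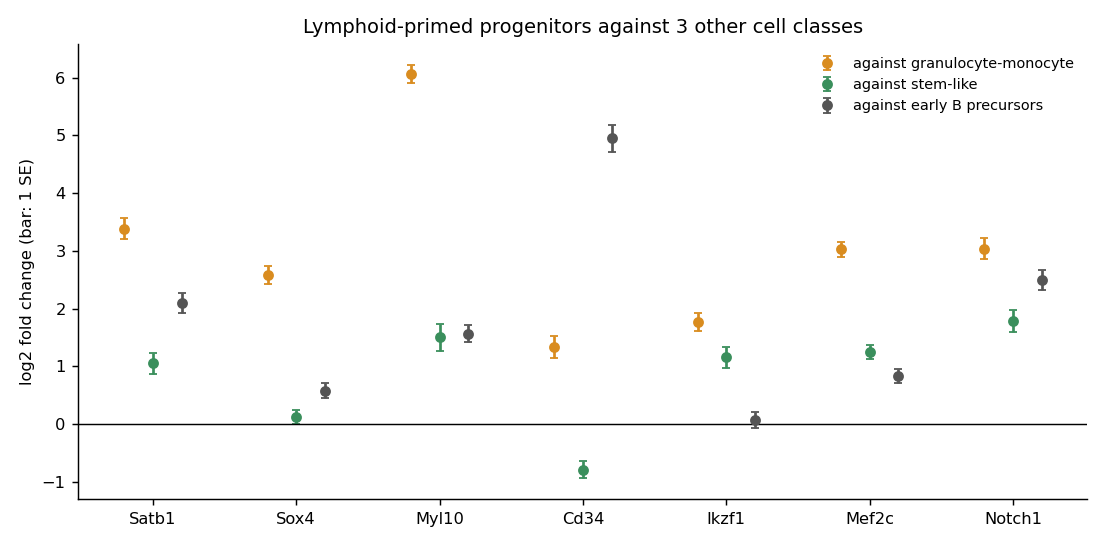
Fitted log2 fold change (vertical axis, bars 1 SE) of each of the 7 genes in lymphoid-primed progenitors against granulocyte-monocyte progenitors, stem-like progenitors and early B precursors, from 4 libraries per class. Against granulocyte-monocyte progenitors all 7 points lie above 0, from 1.33 for Cd34 to 6.07 for Myl10, whereas Cd34 lies below 0 against stem-like progenitors.

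A list of 49 other genes of lymphoid specification (factors, Notch pathway, surface molecules and relatives of the 7) was followed in the same tests. Against granulocyte-monocyte progenitors 32 could be tested, of which 21 were higher and 3 lower in lymphoid-primed cells, with a median log2 fold change of 1.14 beside 0.01 over all genes. The highest were Lck (5.30), a kinase of the T cell receptor, and Blnk (5.24), an adaptor of the pre-B receptor, and the lowest were Gfi1 (-1.44) and Spi1 (-1.09), factors of the granulocyte and myeloid programmes. Against stem-like progenitors 9 of 28 were higher and 2 lower (median 0.35 beside -0.01 over all genes), led by Blnk (5.14) and the B cell factor Ebf1 (4.58), with Ikzf2 (-2.61), a relative of Ikaros, and the Notch-cleaving protease gene Adam10 (-1.02) lower. Against early B precursors 13 of 38 were higher and 11 lower (median 0.20 beside -0.01 over all genes). Cd27 (4.18), a receptor of the tumour necrosis factor receptor family, and Notch2 (2.72) were highest there, while Lef1 (-6.19) and Ebf1 (-4.75), factors of early B cells, were lowest.

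Across 15 gated classes of progenitors and later cells, Myl10 was high in 3. Its mean over the 4 libraries was 396 CPM in lymphoid-primed progenitors, 171 CPM in stem-like progenitors and 131 CPM in early B precursors. The lymphoid-primed values did not overlap those of the next class, the stem-like and early B values overlapped, and the early B values did not overlap those of plasmacytoid dendritic cells (23.0 CPM), the next class down. In NK cells it had 0 UMIs in every library. Satb1 had a wider range, with 167 CPM in NK cells, 140 CPM in T cells and 130 CPM in lymphoid-primed progenitors, which overlapped. Basophils followed at 69.5 CPM, below the lymphoid-primed but not below the T cell values, and stem-like progenitors at 63.7 CPM reached into the lymphoid-primed range.

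The other 5 genes peaked in different classes, with Sox4 and Ikzf1 in the same class and Notch1 in that of Myl10. Sox4 was highest in small B precursors (398 CPM) and next in lymphoid-primed progenitors (298 CPM), while Cd34 was highest in stem-like (267 CPM) and next in lymphoid-primed progenitors (155 CPM). Ikzf1 was highest in small B precursors (207 CPM) and lowest in granulocyte-monocyte progenitors (37.4 CPM). Mef2c was highest in mature B cells (385 CPM), plasmacytoid dendritic cells (375 CPM) and lymphoid-primed progenitors (322 CPM). Notch1 was highest in lymphoid-primed progenitors (135 CPM) and plasmacytoid dendritic cells (125 CPM).

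As a description over the means of these 15 classes, which come from the same 4 libraries, the genes outside the 7 and outside the gates whose log2(CPM + 10) followed Satb1 most closely were Rasal3 (Pearson's r = 0.921), Tes (0.921), Tbc1d10c (0.920), Adamts10 (0.912) and Rassf5 (0.908). For Myl10 they were Tmem121 (0.918), Gm5111 (0.910), Calcrl (0.875), Fggy (0.867) and D130020L05Rik (0.865). Satb1 and Myl10 themselves had r = 0.283 over the same classes, and the closest pair among the 7 was Satb1 with Notch1 (0.734).

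**Figure D2:**
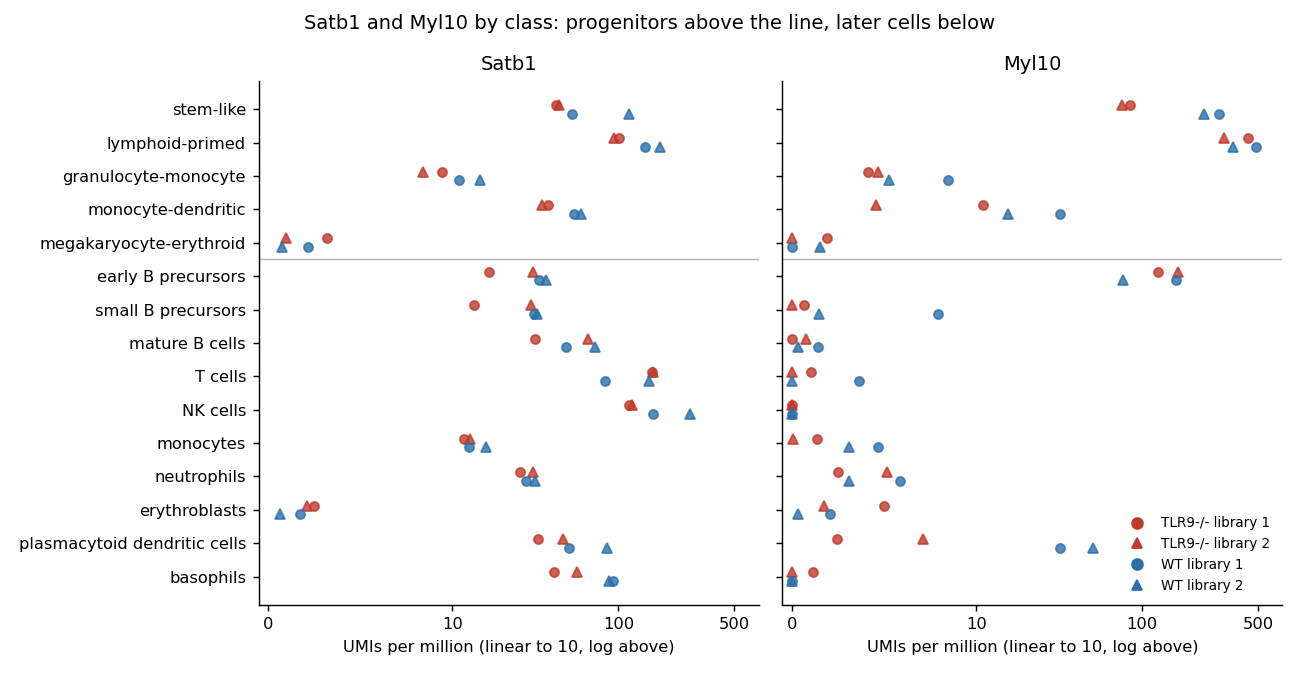
Satb1 (left) and Myl10 (right) in CPM (horizontal axis, linear to 10 and logarithmic above) in 5 progenitor types and 10 later classes, with 1 point per library, TLR9-/- in red and WT in blue. Myl10 is at least 75.1 CPM in every library of the stem-like, lymphoid-primed and early B classes and at most 50.7 CPM in the others, and in plasmacytoid dendritic cells its red points lie left of the blue ones.

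The genotypes were then described over the whole progenitor pool. In these sums fewer cells of a type and fewer molecules per cell cannot be told apart. Satb1 was at 22.6 and 16.4 CPM in the TLR9-/- and at 27.2 and 25.1 CPM in the WT libraries. Both TLR9-/- values were below both WT values, a fitted log2 fold change of -0.44 (SE 0.21). Without TLR9-/- library 2 it was -0.21 and without TLR9-/- library 1 it was -0.65.

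Myl10 was at 39.5 and 25.1 CPM in TLR9-/- and at 68.3 and 34.8 CPM in WT progenitors. The ranges overlapped, since TLR9-/- library 1 was above WT library 2, and the fitted log2 fold change was -0.65 (SE 0.32). It was -0.15 without WT library 1. Ikzf1 was at 65.4 and 58.1 CPM against 83.6 and 75.1 CPM, without overlap, and had a log2 fold change of -0.37 (SE 0.15). Cd34 was on the opposite side, at 90.1 and 85.0 CPM against 64.7 and 54.5 CPM, without overlap (0.55, SE 0.16). Sox4 (0.04), Mef2c (0.21) and Notch1 (0.13) had overlapping libraries. Of the 7 genes, 2, Satb1 and Ikzf1, had both TLR9-/- libraries below both WT libraries, beside 22.3% of all 10892 genes of the pool. With gates on thinned cells the mean Ikzf1 level was instead higher in TLR9-/- libraries, by 3.61 CPM. The choice rested on lower Satb1 and Myl10 in these progenitors. Counts that hold them, here and in the types below, therefore describe and cannot be weighed against the share of all genes.

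The makeup of the pool also differed between the libraries. Granulocyte-monocyte progenitors gave 43.1% and 53.5% of the UMIs of the pool in TLR9-/- libraries and 32.6% and 34.0% in WT libraries. Megakaryocyte-erythroid progenitors gave 19.8% and 23.1% against 36.7% and 46.3%. Satb1 stood at 8.43 to 14.8 CPM in the former and 0.774 to 3.21 CPM in the latter type. The types with most of the lymphoid genes differed by fewer percentage points. Stem-like progenitors gave 13.3% and 9.06% against 8.29% and 7.55%, without overlap. Lymphoid-primed progenitors gave 5.14% and 4.88% against 7.63% and 3.42%, with overlap. Counted as cells and not as UMIs, stem-like progenitors were 22.5% and 17.5% of the TLR9-/- pool and 18.2% and 19.0% of the WT pool, with overlap. The cell shares of granulocyte-monocyte and of megakaryocyte-erythroid progenitors did not overlap, as their UMI shares did not.

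Whether the lower pooled Satb1 and Myl10 came with the makeup or with the levels inside the types was worked out by arithmetic. The pooled difference, TLR9-/- minus WT, was split into a part from the share of UMIs of each type and a part from the level of the gene in each type, each taken at the mean of the genotypes. For Satb1 the difference of -6.66 CPM was made of 3.63 from the shares and -10.3 from the levels. For Myl10 the difference of -19.2 CPM was made of 4.77 from the shares and -24.0 from the levels. At these means the shares placed both genes higher in the TLR9-/- pool, and the levels placed them lower. The largest share part of any type was that of stem-like progenitors, with 2.04 CPM for Satb1 and 5.60 CPM for Myl10. Each such part is the change in the share of a type times its own level. Because the shares of all types sum to a whole, the part of a single type is not its effect on the pooled difference.

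Among the types, the levels in stem-like progenitors gave -17.5 of the -24.0 CPM for Myl10, and those in lymphoid-primed progenitors gave -3.64. For Satb1 the level parts were spread, at -3.82 for stem-like, -3.02 for lymphoid-primed, -2.01 for monocyte-dendritic and -1.64 for granulocyte-monocyte progenitors. In the 4 pairs of 1 TLR9-/- and 1 WT library, the level part was -6.05, -14.6, -7.49 and -14.3 CPM for Satb1 and -28.2, -14.0, -34.1 and -17.6 CPM for Myl10. These pairs combine the same 4 libraries and are not independent of each other. The share part changed sign among the pairs, from -3.31 to 12.1 CPM for Satb1 and from -9.13 to 18.7 CPM for Myl10. It was also negative for Myl10, at -6.86 CPM, when the gates were set on cells thinned to 2000 UMIs.

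The other genes split in other ways. For Ikzf1 the difference of -17.6 CPM came to -13.4 from the shares and -4.18 from the levels. The term for the smaller share of megakaryocyte-erythroid cells, a type in which Ikzf1 stood at 98.8 to 127 CPM, was -21.6. The term for the larger share of granulocyte-monocyte cells was 5.58. For Cd34 the 28.0 CPM were made of 19.2 from the shares and 8.73 from the levels, with 10.0 from its level in granulocyte-monocyte cells. For Sox4 parts of opposite sign, 14.3 from the shares and -10.8 from the levels, left a difference of 3.52 CPM. Mef2c had 6.43 and 4.62, and Notch1 had 3.67 and -1.55, in the same order. These splits depended on the gates. With gates on thinned cells the Ikzf1 difference was 3.61 CPM, with -11.8 from the shares and 15.4 from the levels. The Cd34 level part was then -0.575 CPM, and it was -0.532 CPM without cells with a B marker UMI. The thinned-gate differences of Sox4, Mef2c and Notch1 were -9.48, 1.28 and -5.15 CPM.

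**Figure D3:**
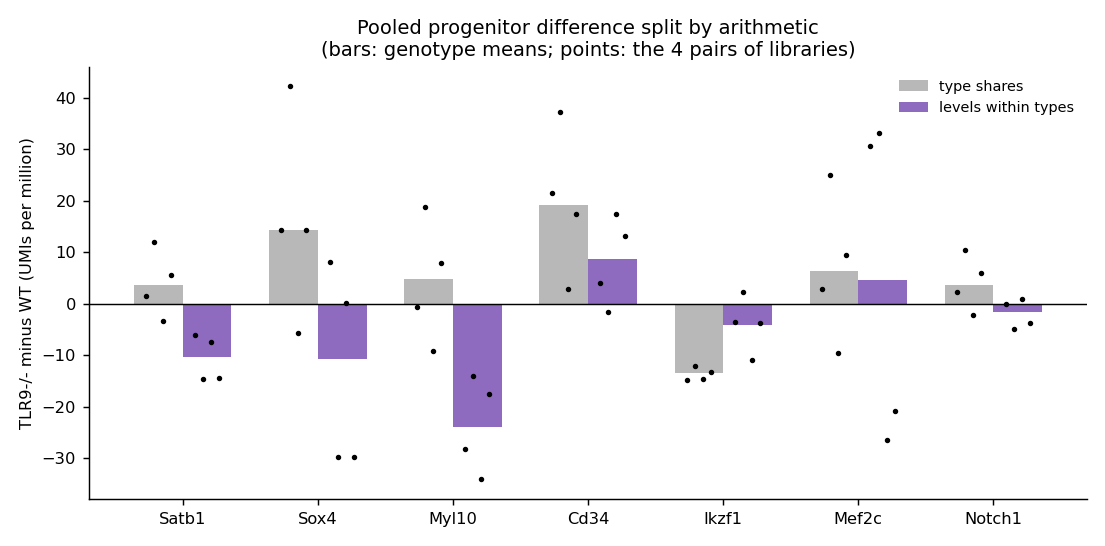
Difference TLR9-/- minus WT in the progenitor pool (vertical axis, CPM) for each of the 7 genes, split into the part from the shares of the types (grey bars) and the part from the levels within types (purple bars), with points for the 4 pairs of libraries. For Satb1 and Myl10 the purple bars lie below 0 at -10.3 and -24.0 CPM with the 4 points below 0, while the grey points fall on both sides of 0.

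Within stem-like progenitors Myl10 was at 84.0 and 75.1 CPM in the TLR9-/- libraries (88 and 92 UMIs) and at 290.2 and 234.9 CPM in the WT libraries (61 and 99 UMIs). The genotypes did not overlap, and the fitted log2 fold change was -1.75 (SE 0.22), between -1.88 and -1.60 with any 1 library left out. The UMIs were spread over 40 and 38 TLR9-/- cells and 23 and 37 WT cells, with at most 13 in a cell. Satb1 was at 42.0 and 44.1 CPM against 52.3 and 116 CPM, from 44, 54, 11 and 49 UMIs. The libraries again did not overlap, but WT library 2 stood far above WT library 1, and the log2 fold change of -1.13 (SE 0.32) was -0.29 without that library.

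Sox4 in stem-like cells was at 220.6 and 222 CPM against 262 and 365 CPM (log2 fold change -0.58), and Notch1 was at 33.4 and 32.6 CPM against 47.6 and 61.7 CPM (-0.83). With Satb1 and Myl10, on which the choice rested, they made 4 of 7 genes with both TLR9-/- libraries below both WT libraries. Of 6998 genes of this type 19.9% were so placed. Cd34 (-0.19), Ikzf1 (-0.23) and Mef2c (-0.41) had overlapping libraries. The median depth of stem-like cells was 6400 and 9185 UMIs in TLR9-/- and 4083 and 4824 UMIs in WT libraries. The B marker panel summed to 59.2 and 53.1 CPM against 71.4 and 90.2 CPM, with a UMI for 6 of 6 markers over the libraries, and Igll1 was at 0 in 3 of 4 libraries. The neutrophil panel stood at 119 CPM in WT library 2, the library with the high Satb1, and at 23.8 to 30.6 CPM in the others. Hlf, a gene of the gate, was also lower in TLR9-/- stem-like cells, at 90.7 and 86.5 CPM against 133 and 128 CPM. The part of depth, of the makeup of the type and of B or neutrophil transcripts in these differences was not tested beyond the subsets and the thinning given below.

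Stem-like cells can lean toward the lymphoid fate to different degrees, so they were divided in ways chosen after the values were seen. In stem-like cells with no UMI of the lymphoid-primed panel (119, 88, 38 and 48 cells), Myl10 was at 66.0 and 50.2 CPM against 242 and 160.0 CPM, and Satb1 at 38.0 and 43.6 CPM against 50.6 and 83.6 CPM. In those with no UMI of the B and early B genes (91, 61, 32 and 37 cells), Myl10 was at 82.4 and 42.3 CPM against 262 and 176 CPM, and Satb1 at 33.9 and 47.6 CPM against 36.4 and 78.1 CPM. Both subsets kept the TLR9-/- libraries below the WT libraries for Myl10, whereas Satb1 overlapped in the second, with TLR9-/- library 2 above WT library 1. In cells with a Flt3 UMI after thinning (39, 28, 6 and 24 cells) Myl10 was at 179 and 104 CPM against 404 and 485 CPM. In those without one (100, 87, 38 and 46 cells) it was at 56.1 and 67.8 CPM against 269 and 134 CPM. Myl10 was lower in TLR9-/- libraries on either side of this division, whereas Satb1 with a Flt3 UMI was at 58.2 and 56.1 CPM against 33.7 CPM, which was 1 UMI, and 164 CPM. The division was set on thinned cells. Over all their UMIs, the cells without a Flt3 UMI still held Flt3 at 37.4, 42.1, 56.0 and 90.4 CPM. The subsets with no UMI of a panel were set on all UMIs and so depend on depth. The part of makeup in these Myl10 values, which belong to those that led to the choice, was not tested.

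**Figure D4:**
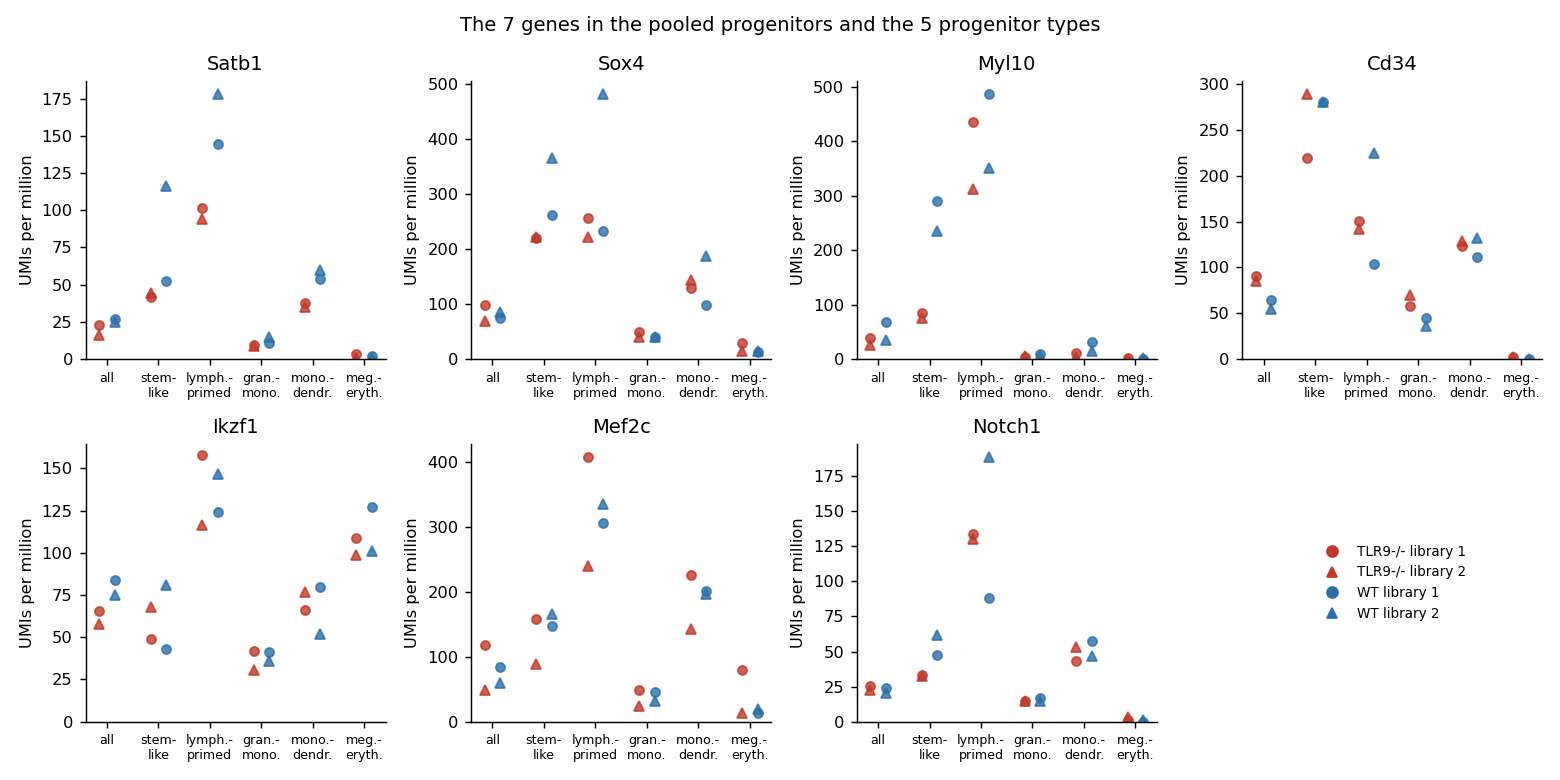
The 7 genes in CPM (vertical axes) in the whole progenitor pool and in the 5 progenitor types, with 1 point per library, TLR9-/- in red and WT in blue. In stem-like progenitors the blue Myl10 points, at 234.9 and 290.2 CPM, lie above the red points at 75.1 and 84.0 CPM, while in lymphoid-primed progenitors the colours mix.

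In lymphoid-primed progenitors Satb1 alone of the 7 genes had both TLR9-/- libraries below both WT libraries, with the 101 and 93.9 CPM against 145 and 178 CPM given above (log2 fold change -0.77, SE 0.27). That was 1 of 7 genes, beside 14.3% of 3895 genes of this type. Myl10, with 435 and 312 CPM against 486 and 351 CPM, overlapped between the genotypes (-0.22, SE 0.26). Its difference was 0.09 without WT library 1 and -0.80 when the type was instead defined by a UMI of both Flt3 and Dntt. With the same definition Satb1 had -1.03. Sox4 was at 257 and 221 CPM against 233 and 482 CPM, Notch1 at 133 and 130.3 CPM against 87.9 and 189 CPM, and Mef2c at 408 and 239 CPM against 305 and 335 CPM, each with overlap.

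In granulocyte-monocyte progenitors Satb1 was low throughout, at 9.42 and 8.43 CPM against 10.9 and 14.8 CPM, and Myl10 was at 4.12 and 4.70 CPM against 8.48 and 5.28 CPM. They were 2 of 7 genes placed lower without overlap, beside 16.6% of 8958 genes. Cd34 was on the opposite side here too, at 58.3 and 70.2 CPM against 44.8 and 35.9 CPM (log2 fold change 0.67, SE 0.20). In monocyte-dendritic progenitors Satb1 was at 37.7 and 34.7 CPM against 54.1 and 59.6 CPM (-0.69, SE 0.30), and Myl10 was at 11.0 and 4.56 CPM against 31.8 and 15.6 CPM (-1.57, SE 0.60). These were 2 of 7 genes with both TLR9-/- libraries below both WT libraries, beside 15.3% of 6483 genes. In megakaryocyte-erythroid progenitors Satb1 did not exceed 3.21 CPM nor Myl10 1.93 CPM, and neither passed the filter on low counts, nor did Cd34 and Notch1.

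Satb1 was thus lower without overlap in 4 of 5 progenitor types and Myl10 in 3 of 5, which lie side by side from the same 4 libraries and are not independent of each other. Both genes were chosen for lower values in these progenitors.

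Because TLR9-/- cells were deeper, each cell was thinned at random to 2000 UMIs, and shallower cells were left out, before cells with a UMI were counted. In stem-like progenitors Myl10 was then found in 13.7% (95% exact binomial interval 8.43 to 20.5) and 9.57% (4.87 to 16.5) of TLR9-/- cells. In WT cells it was found in 40.9% (26.3 to 56.8) and 38.6% (27.2 to 51.0). Both WT shares were above both TLR9-/- shares, as in the CPM on which the choice of the gene rested, and the intervals describe counting within each mouse only. The mean difference was -28.1 percentage points, or -21.0 at 1000 UMIs per cell and -21.1 without thinning. In megakaryocyte-erythroid progenitors and T cells, which should lack the gene, the mean share was at most 0.431%. The part of free RNA in the stem-like shares was not tested.

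For Satb1 the stem-like shares were 9.35% and 9.57% in TLR9-/- and 11.4% and 24.3% in WT libraries. In lymphoid-primed progenitors they were 19.2% and 14.5% against 35.5% and 26.9%, and in monocyte-dendritic progenitors 5.05% and 6.98% against 20.5% and 14.3%. In each of these 3 types both TLR9-/- shares were below both WT shares at 2000 UMIs, but the exact binomial intervals overlapped. At 1000 UMIs per cell the order was mixed in monocyte-dendritic progenitors, at 5.88% and 6.82% against 2.27% and 11.4%. In lymphoid-primed progenitors it was then 9.09% and 9.09% against 9.68% and 25.9%. Without thinning the mean Satb1 difference was -1.56 percentage points in stem-like, -12.1 in lymphoid-primed and 3.22 in monocyte-dendritic progenitors. Thinned megakaryocyte-erythroid progenitors gave 0% for Satb1 in every library. Myl10 in lymphoid-primed progenitors was found in 55.8% and 41.8% of TLR9-/- cells and 38.7% and 42.3% of WT cells, with mixed order.

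**Figure D5:**
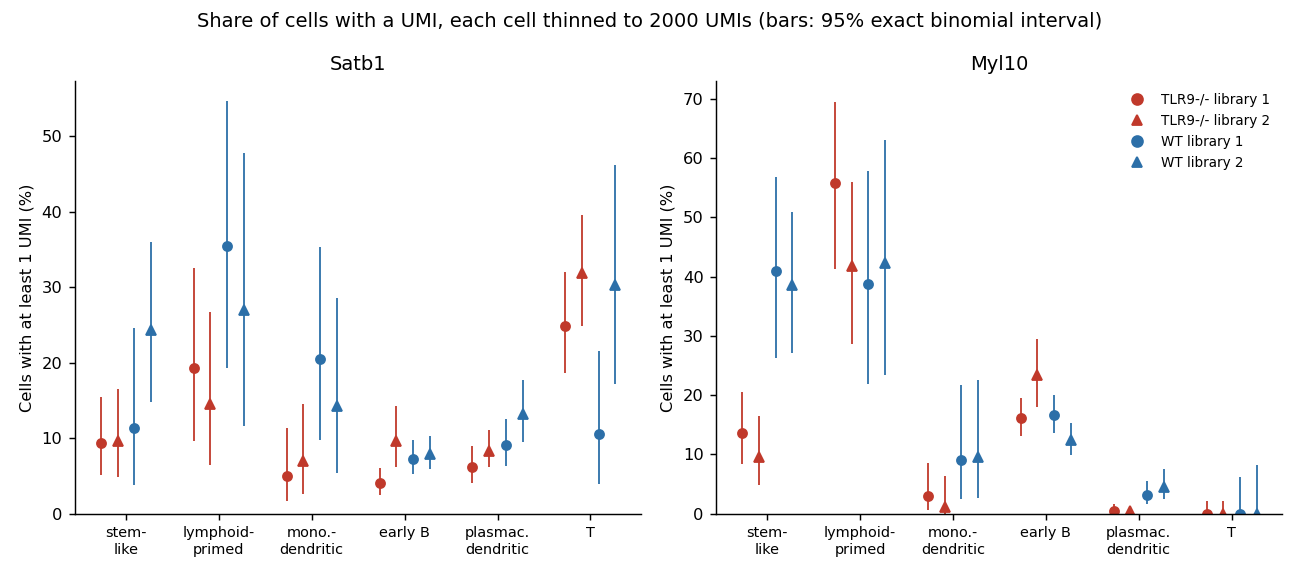
Percent of cells with at least 1 UMI of Satb1 (left) and Myl10 (right) after thinning each cell to 2000 UMIs (vertical axes), in 6 classes, with 1 point per library and bars for the 95% exact binomial interval. Myl10 in stem-like progenitors lies at 38.6% and 40.9% in the WT libraries and at 9.57% and 13.7% in the TLR9-/- libraries, while the lymphoid-primed bars overlap.

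The genotype effect was next tested in later cells, which the choice of the genes had not used. In 6 classes (early B precursors, small B precursors, mature B cells, T cells, monocytes and neutrophils), 36 tests of the 7 genes were possible. By edgeR without a block 0 of 36 passed at an adjusted p of 0.05, and 6 had an unadjusted p below it. DESeq2 called 0, with 4 unadjusted. Over all genes edgeR gave 957 of 10041, 582 of 8740 and 558 of 9354 unadjusted in the B lineage classes, in the order above. It gave 244 of 5173 in T cells, 1091 of 10832 in monocytes and 652 of 10555 in neutrophils. DESeq2 gave fewer unadjusted genes in every class, from 46 in T cells to 584 in monocytes. With the library number as a block, whose meaning the labels do not state, edgeR called 2, Sox4 in mature B cells and Myl10 in monocytes. That fit called 211 of 9354 genes in mature B cells and 677 of 10832 in monocytes. Without the block, the shares of all genes called were 0.488% in early B precursors, 0.263% in small B precursors and 0.192% in mature B cells. They were 0.0967% in T cells, 0.452% in monocytes and 0.417% in neutrophils, so that few genes of any kind passed with 2 libraries per genotype.

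In early B precursors Satb1 was at 16.7 and 30.8 CPM in TLR9-/- and at 33.4 and 36.7 CPM in WT libraries. The values did not overlap but TLR9-/- library 2 lay near the WT libraries, and the log2 fold change was -0.64 (SE 0.26, edgeR adjusted p = 0.474). Myl10, also a gene of this stage, was at 125 and 165 CPM against 160.3 and 76.2 CPM. WT library 2 was the lowest of the 4, and the log2 fold change of 0.26 (SE 0.30) had an edgeR adjusted p of 0.819. Without WT library 1 it was 0.90 (edgeR adjusted p = 0.00606) and without WT library 2 it was -0.19, where the lone WT library is assumed to vary like the TLR9-/- libraries. Thinned to 2000 UMIs, 16.1% and 23.3% of TLR9-/- cells and 16.7% and 12.5% of WT cells had a Myl10 UMI (exact permutation test, two-sided p = 0.667, where 0.33 is the smallest the design allows). Ikzf1 was also lower without overlap in early B precursors, with means of 115 CPM in TLR9-/- and 144 CPM in WT libraries, and did not pass.

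In small B precursors Satb1 was at 13.5 and 29.9 CPM against 30.9 and 32.5 CPM (-0.68, edgeR adjusted p = 0.797). In mature B cells it overlapped, at 31.5 and 66.1 CPM against 48.5 and 72.2 CPM. T cells, where Satb1 takes part in thymic maturation, had the opposite order, with 161 and 161 CPM in TLR9-/- and 83.5 and 154 CPM in WT libraries. WT library 1 stood apart from the other libraries, and the log2 fold change of 0.46 (SE 0.30) had an edgeR adjusted p of 0.954.

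Sox4 was lower in TLR9-/- libraries without overlap in mature B cells, at 47.9 and 45.1 CPM against 66.3 and 98.9 CPM (log2 fold change -0.82, SE 0.24, edgeR adjusted p = 0.390). In T cells it was at 11.7 and 8.96 CPM against 47.2 and 29.6 CPM from only 11, 6, 13 and 5 UMIs (-1.95, SE 0.53, edgeR adjusted p = 0.699). In monocytes Myl10 was near the limit of detection, at 18, 1, 21 and 14 UMIs (-2.47, SE 0.83, edgeR adjusted p = 0.402). TLR9-/- library 1 held 18 of the 19 UMIs of its genotype, and without it a single library with 1 UMI remained, which gave -5.55 (edgeR adjusted p = 0.00785, with the spread taken from the WT libraries). Cd34 of the TLR9-/- libraries was above that of the WT libraries in monocytes, at 34.4 and 38.7 against 24.9 and 29.5 CPM (0.41). In neutrophils it was at 8.56 and 6.28 against 3.52 and 3.58 CPM (1.05). The neutrophil mean of 5.48 CPM was close to those of small B (4.94 CPM) and early B precursors (4.68 CPM), and the part of free RNA was not tested. Neither Cd34 difference passed (edgeR adjusted p = 0.481 and 0.541).

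After these values were seen, 4 further classes were tested in the same way. Of 19 tests of the 7 genes 1 passed, Myl10 in plasmacytoid dendritic cells, where 0.358% of 8933 genes were called. In NK cells 0.106% of genes were called, in erythroblasts 0.0493% and in basophils 0.145%, with 0 of the 7 genes among them. At an unadjusted p of 0.05, edgeR gave 1 of the 7 genes in NK cells, 0 in erythroblasts, 2 in basophils and 2 in plasmacytoid dendritic cells. Over all genes it gave 100 of 1879, 227 of 8112, 408 of 6218 and 574 of 8933 in that order. DESeq2 called 0 of the 7 genes in NK cells, erythroblasts and basophils. Satb1 was lower in TLR9-/- libraries without overlap in NK cells, at 115 and 121 CPM against 161 and 272 CPM (-0.79, edgeR adjusted p = 0.876), and in basophils, at 40.8 and 56.0 CPM against 93.5 and 87.8 CPM (-0.97, SE 0.28, edgeR adjusted p = 0.582). Over all 10 later classes Satb1 lay lower without overlap in 5, higher without overlap in 2 and with overlap in 3. Sox4 also lay lower without overlap in 5, and higher in 1, while Cd34 lay lower in 1 and higher in 4. Myl10 lay lower in 3, and some of the Myl10 and Cd34 levels were near 0. So was Satb1 in erythroblasts, where it lay higher but at 2.51 CPM or less. Sox4 lay higher in NK cells, at 8.07 CPM or less and with 0 in WT libraries. In the 10 later classes 7.09% to 20% of all genes tested had both TLR9-/- libraries below both WT libraries. Taking either direction, 23.4% to 42.1% of all genes tested did not overlap.

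Plasmacytoid dendritic cells produce type I interferon, carry Tlr9 themselves and descend in part from lymphoid progenitors. Myl10 had 4 and 17 UMIs in those of TLR9-/- mice and 51 and 54 UMIs in those of WT mice, or 2.48 and 7.14 CPM against 31.8 and 50.7 CPM. The genotypes did not overlap, and the log2 fold change was -2.96 (SE 0.40, edgeR adjusted p = 0.00963), or -3.03 with DESeq2 (adjusted p = 8.82e-05). With 1 library left out it lay between -3.97 and -2.51, and without WT library 2 the call was lost (-2.66, edgeR adjusted p = 0.0634).

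These UMIs sat in few cells, 4 of 602 and 9 of 583 in TLR9-/- and 12 of 692 and 14 of 354 in WT libraries, with up to 16 in a single cell. In plasmacytoid dendritic cells with no UMI of the B and early B genes, 423, 306, 427 and 171 cells, Myl10 had only 1, 1, 2 and 7 UMIs. Most Myl10 UMIs of this class were thus in cells that also held a B or early B transcript such as Dntt. The B panel in the class summed to 98.6 and 88.6 CPM in TLR9-/- and 161 and 135 CPM in WT libraries, and Dntt stood at 92.4 and 128 CPM against 135 and 232 CPM. The part of these transcripts in the Myl10 result was not tested further. Satb1 in the same cells was at 32.9 and 46.2 CPM against 50.5 and 85.5 CPM, without overlap (-0.75, SE 0.27, edgeR adjusted p = 0.688), and at 26.7 and 41.5 CPM against 34.8 and 68.7 CPM in those without a B transcript, where TLR9-/- library 2 lay above WT library 1. Notch1 (means of 106 against 145 CPM) and Cd34 (6.25 against 9.53 CPM) were also lower without overlap over the whole class and did not pass.

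Among the 49 other lymphoid genes, the 10 later classes gave 1 edgeR call for genotype. It was Id3, an inhibitor of E proteins, in plasmacytoid dendritic cells, with a log2 fold change of 2.52 (edgeR adjusted p = 0.000442).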

How the data were processed

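Bone marrow mononuclear cells of 4 mice were sequenced from the 5′ end on the 10x Chromium platform. Per the labels and methods, the authors used Cell Ranger and STAR with mm10, and the deposited values are whole-number UMI counts per gene and cell, not normalized (matrix header software 3.0.1). Seurat 2.3.4 is named in the submitters' processing notes. Cells with 200 to 10000 genes and at most 10% mitochondrial UMIs were kept, and no doublet caller was run. Gates used 77 marker genes (a type needed 2 UMIs on its panel). UMIs were summed per library and class and tested with edgeR 4.0.16 (quasi-likelihood, TMM, filterByExpr, Benjamini-Hochberg at 0.05), between types with the library as a block and between genotypes without one, with DESeq2 1.42.0 as an alternative. Scripts were tested on simulated data. CPM are plain UMI shares, with no TMM scaling. The 7 genes were summed in every class, but genotype values are printed for only some pairs of gene and class. A pair that is not printed is not thereby without a difference. Of the 49 listed genes, at most 2 with the largest fold change in each direction past the test are named, and the 5 genes closest to Satb1 and to Myl10. Genes and lists were chosen with earlier results of these data known. Shares of cells used 2000 UMIs per cell. Gene positions are from GENCODE on GRCm38. Alternatives covered size factors, low-count filter, replicate block, each library, gates and depth.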

Additional observations from a re-analysis of the deposited data

Results flagged for a closer look

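Myl10 had a genotype difference in plasmacytoid dendritic cells that differed from that in early B precursors. The difference between these log2 fold changes was -3.26 (standard error 0.51, adjusted p = 0.0131 by edgeR with the library as a block, 20 of 10154 genes called), with both TLR9-/- libraries below both WT libraries in the dendritic cells and mixed order in the precursors. The comparison was chosen after the values were seen, and the UMIs of the dendritic cells came from 4 to 14 cells per library.

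Satb1 had a genotype difference in T cells that differed from that in early B precursors, by 1.23 on the log2 scale (standard error 0.30, edgeR adjusted p = 0.0207, 29 of 9446 genes called). In CPM, both TLR9-/- libraries were above both WT libraries in T cells, and both were below in early B precursors. In T cells WT library 1, at 83.5 CPM, stood apart from the other libraries. With cells thinned to 2000 UMIs, the order of the libraries was mixed in both classes. A Satb1 UMI was then found in 24.9% and 31.9% of TLR9-/- T cells and in 10.5% and 30.2% of WT T cells. In early B precursors these shares were 4.03% and 9.69% against 7.26% and 7.88%. The comparison of the T cell and early B differences, too, was chosen after the values were seen.

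Cd34 was higher in both TLR9-/- libraries than in both WT libraries in granulocyte-monocyte progenitors (log2 fold change 0.67) and lower in both in plasmacytoid dendritic cells (-0.60). The Cd34 values of the plasmacytoid dendritic cells were low, at 6.20 to 10.3 CPM. Sox4 was higher in both in megakaryocyte-erythroid progenitors (0.56) and lower in both in stem-like progenitors (-0.58). In the megakaryocyte-erythroid type the highest Sox4 value, 28.9 CPM in a TLR9-/- library, stood far above the median of 14.9 CPM. These differences between classes were not tested.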

How the results depend on the processing

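The fitted pooled and stem-like differences of Satb1 and Myl10 kept their direction in every alternative fit, but not their size, and the pooled Myl10 of TLR9-/- library 1 lay above that of WT library 2 by 4.70 CPM. Satb1 in the pool lay between -0.65 and -0.21 with 1 library left out, at -0.27 without cells with a B marker UMI and at -0.87 with clusters in place of gates. Myl10 in the pool lay between -1.06 and -0.15 with 1 library left out and at -1.22 with clusters. With 1 library left out, Satb1 lay between -1.47 and -0.29 in stem-like and between -0.86 and -0.60 in lymphoid-primed progenitors. With the Flt3 and Dntt gate the lymphoid-primed values were -1.03 for Satb1 and -0.80 for Myl10.

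The level part of the split was -6.14 CPM (Satb1) without cells with a B marker UMI and -19.3 (Satb1) and -52.4 (Myl10) CPM with gates on thinned cells. Among the pairs of libraries it was -6.05, -14.6 and -14.3 CPM for Satb1 where it moved beyond the spread. The share part for Satb1 was 12.1 CPM for TLR9-/- library 1 with WT library 2 and reversed to -3.31 CPM for TLR9-/- library 2 with WT library 1. For Myl10 it reversed to -0.560 and -9.13 CPM in the pairs with WT library 1 and to -6.86 CPM with gates on thinned cells. Shares of cells at 1000 UMIs differed by -1.48 (Satb1, pool), -4.47 (Myl10, pool) and -21.0 (Myl10, stem-like) percentage points.

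Of the 7 genes, 7 were higher against granulocyte-monocyte progenitors, 5 against stem-like progenitors and 6 against early B precursors with any 1 library left out, while the count of all genes called changed. With 1 library left out the counts lay between 1548 and 2597, 258 and 460, and 1689 and 2303 in that order. The first was 1547 without B marker UMIs and 908 on thinned cells, where fewer cells enter the gates, and the second was 218 with DESeq2. Ikzf1 against early B precursors turned to -0.048 without the filter on low counts and lay between -0.050 and 0.14 with 1 library left out. Myl10 in early B precursors lay between -0.19 and 0.90 for genotype with 1 library left out.

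For genotype in early B precursors, small B precursors, mature B cells, T cells, monocytes and neutrophils, the genes called, 49, 23, 18, 5, 49 and 44, became 234, 165, 153, 21, 138 and 238 without the filter on low counts. With 1 library left out they lay between 72 and 229, 36 and 64, 29 and 192, 4 and 25, 11 and 111, and 19 and 119. DESeq2 called 90 in monocytes. The cause of these changes was not tested.

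With the library number as a replicate block, the counts were 118, 197, 211, 29, 677 and 149 in the same order. Deviations of same-numbered libraries were positively correlated in every class except lymphoid-primed progenitors (-0.00245). The positive values ran from 0.136 (monocyte-dendritic) to 0.678 (erythroblasts). Same-numbered libraries thus deviated together to some degree, but the labels do not state what the number marks, so the block was kept as an alternative. The block gave 2 more calls among the 36 tests of the 7 genes, Sox4 in mature B cells (-0.83, edgeR adjusted p = 0.00803) and Myl10 in monocytes (-2.62, edgeR adjusted p = 2.62e-05). It also called Satb1 in plasmacytoid dendritic cells (-0.78, edgeR adjusted p = 0.0176), where it called 175 of 8933 genes. Few lymphoid-primed cells per library limit what could be seen there.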
